A study of Homo sapiens with 6 samples.

Results

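Aminoacyl-tRNA synthetases are the enzymes that join each amino acid to its transfer RNA. The 36 synthetase genes described here were listed by symbol and family, not by a threshold on measured values, but with earlier results of these data known. All 36 were found among the 61496 features of the count table. Of these, 20 encode cytosolic enzymes and 16 encode mitochondrial enzymes. The libraries came from U251, an established human glioma cell line grown in DMEM with 10% FBS. There were 3 control libraries from untreated cells and 3 libraries from cells exposed to sevoflurane (Sev), an inhaled anesthetic, for 2 h. The labels list gas concentrations of 1.7%, 3.4% and 5.1% and do not assign one to a library; a figure legend of the study names the highest of them for the sequenced cells. No label says whether the 3 libraries of a group came from separate cultures, so the tests measure only the spread between these libraries, which may be technical.

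Charging of tRNA takes place in separate compartments, and most amino acids have a nuclear gene for the cytosolic enzyme and another for the enzyme imported into mitochondria. The enzymes fall into class I and class II, which have unrelated catalytic folds, and several cytosolic members sit together with scaffold proteins in the multi-synthetase complex. When an amino acid runs short, uncharged tRNA activates the kinase GCN2, translation of the transcription factor ATF4 rises, and ATF4 binds C/EBP-ATF elements near amino acid transporters, biosynthetic enzymes and several cytosolic synthetases. Glial tumor cells express the full set because charging is needed for all protein synthesis.

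The promoter sequences of the synthetases are shown first because the element that ATF4 and C/EBP proteins recognize can be read in them directly. RefSeq promoter windows, 250 bases before to 50 bases after a transcript start on GRCh38.p14, were found for 30 of the 36 genes; LARS1, VARS1, YARS1, TARS3, AARS2 and VARS2 had no window. The letters TGATGNAA were searched on both strands (TTNCATCA is the reverse complement; no other motif was searched). The element was present in the windows of 7 of 16 cytosolic genes (43.8%), 1 of 14 mitochondrial genes (7.14%) and 6 of 21 amino acid response genes (28.6%), counting a gene once if any of its windows held it, against 4.46% of all 27305 symbols counted in the same way. Of all 35097 windows, 3.62% held it. A match is a run of letters and not evidence of binding. The 8 synthetase sites follow as 30 bases each, 5′ to 3′ in the direction of the gene, with the 8 matching bases in capitals.

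AARS1: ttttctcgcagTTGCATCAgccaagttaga
CARS1: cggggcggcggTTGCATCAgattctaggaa
GARS1: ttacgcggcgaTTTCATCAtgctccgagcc
IARS1: ttttcagcgcgTTGCATCAcctccgtgcgc
MARS1: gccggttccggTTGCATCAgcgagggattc
NARS1: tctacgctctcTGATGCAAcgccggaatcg
TARS1: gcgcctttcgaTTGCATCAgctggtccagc
YARS2: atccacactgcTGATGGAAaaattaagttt

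The stretch shown for AARS1 lies at chr16:70289675-70289704 on the minus strand, with the element 187 bases before the start, counted here and below to the element's first base. The CARS1 stretch is at chr11:3057407-3057436 (minus strand, 2 bases before the start). GARS1 carried its element in the window of its second listed start, at chr7:30594834-30594863 (plus strand, 33 bases before that start). The IARS1 stretch is at chr9:92293692-92293721 (minus strand, 13 bases before), and that of MARS1 is at chr12:57488053-57488082 (plus strand, 4 bases before), so that the 8-base elements of CARS1 and MARS1 span the start. In NARS1 and TARS1 the element begins after the start, by 14 bases at chr18:57621804-57621833 (minus strand) and by 2 bases at chr5:33440956-33440985 (plus strand). The YARS2 stretch, at chr12:32756076-32756105 on the minus strand, lies 197 bases before the start. The letters TTGCATCA or their complement TGATGCAA were thus shared by 6 of the 7 cytosolic genes.

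A different kind of sequence is shared by the histidine enzymes. HARS1 and HARS2 are transcribed away from each other from RefSeq starts 85 bases apart on chromosome 5, with a single short stretch between them. In GENCODE 29 the HARS1 gene extends farther, across this stretch and over the first bases of HARS2. It is shown in lower case throughout, on the plus strand at chr5:140691371-140691454 (GRCh38.p14). Its 84 bases have a GC content of 59.5% and contain no TGATGNAA.

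HARS1-HARS2: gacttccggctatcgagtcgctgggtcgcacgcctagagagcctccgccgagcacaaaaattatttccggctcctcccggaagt

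The libraries held 38624292 to 46318311 assigned read counts each. Levels are given as CPM (read counts scaled to an equal TMM-adjusted library size), as mean ± SD over 3 libraries, and differences as log2 fold changes of Sev over control from the quasi-likelihood test of edgeR with Benjamini-Hochberg adjustment over all tested features. A gene is called higher or lower at an adjusted p under 0.05. All 36 synthetases passed the count filter and were among the 27514 tested features. Of 7 glial and glioma markers, VIM (5485 CPM), NES (1465 CPM), CD44 (385 CPM), SOX2 (286 CPM) and GFAP (270 CPM) were abundant in control cells. S100B had 22 CPM there, and CHI3L1 was below the filter. Of 8 markers of other cell types, PTPRC and EPCAM were below the filter, and the other 6 (CD68, PECAM1, CDH5, ALB, SYN1 and MBP) had group means of at most 5.06 CPM.

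The cytosolic synthetases rose more often than they fell after Sev. Of the 20, 9 were higher (45%), 2 were lower (10%) and 9 were not called, against a background of 22.1% of all tested features higher and 21.5% lower. Of the 16 mitochondrial synthetases, 3 were higher (18.8%), 4 were lower (25%) and 9 were not called. Over all 36 genes, 18 were called in either direction, against 43.7% of tested features. The changes were small, because only PARS2 passed the threshold of the study (log2 fold change past 1 with an unadjusted p under 0.05), which 11.4% of tested features passed upward and 12% downward; AARS1 passed it too with library-size scaling or in the FPKM fits. Those FPKM fits called 6 or 7 cytosolic genes higher and 4 lower, and 1 or 2 mitochondrial genes higher and 5 or 6 lower, against 9.64% to 16.4% of all features higher and 14.5% to 30% lower in the same fits. Protein-coding genes within the same range of mean CPM as the synthetases (10663 genes) were called higher in 23.7% and lower in 23.3%.

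The median log2 fold change was 0.17 for the cytosolic genes, 0.022 for the mitochondrial genes and -0.0056 for all tested features. In the cytosolic group 14 estimates were positive and 6 negative, ranging from -0.91 for AARS1 to 0.66 for GARS1. The mitochondrial estimates were split into 8 positive and 8 negative and ranged from -2.61 for PARS2 to 0.68 for MARS2. Scaling to library size alone moved the medians to 0.035 and -0.12, so the sign of the mitochondrial median depended on the scaling. With that scaling 7 cytosolic genes were higher and 3 lower, and 3 mitochondrial genes were higher and 6 lower, against 17% of all tested features higher and 27.3% lower. In bulk RNA a change in the number of cells of a kind cannot be told apart from a change in RNA per cell.

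**Figure D1:**
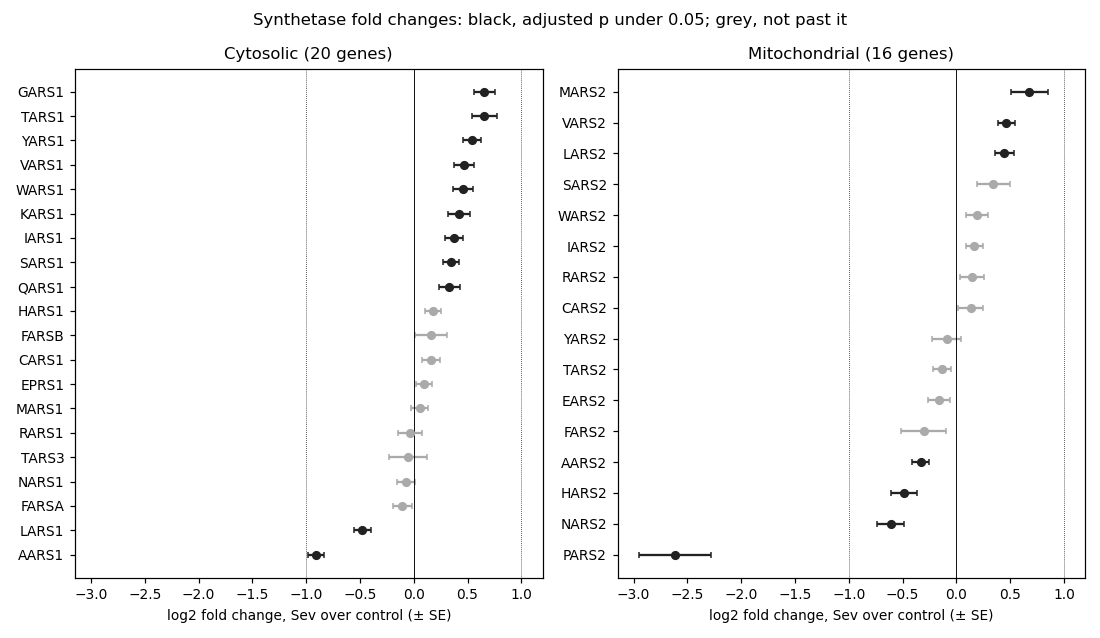
Log2 fold change (Sev over control, edgeR) of each synthetase on the horizontal axis, with bars of 1 standard error, black for genes at an adjusted p under 0.05 and grey for the others, and dotted lines at -1 and 1; cytosolic genes are on the left and mitochondrial genes on the right, ordered by their estimate. GARS1 (0.66) and TARS1 (0.65) lie at the upper end and AARS1 (-0.91) at the lower end of the cytosolic genes, and PARS2 (-2.61) stands far below all other members.

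GARS1, TARS1 and YARS1 rose most among the cytosolic enzymes. GARS1 (ENSG00000106105; GRCh38 chr7:30594681-30634033) makes the glycyl enzyme for both the cytosol and mitochondria from a single gene. Its level was 119, 149 and 137 CPM in the control libraries and 210, 208 and 220 CPM in the Sev libraries. All 3 Sev libraries lay above all 3 controls, with means of 135 ± 15.3 and 213 ± 6.54 CPM (1.58-fold, log2 fold change 0.66, SE 0.096, edgeR adjusted p = 0.00147). TARS1 (ENSG00000113407; chr5:33440696-33469539), the cytosolic threonyl enzyme, had 105, 142 and 112 CPM in control and 186, 184 and 195 CPM in Sev libraries. The groups did not overlap, although control library 2 stood above the other controls (1.57-fold, log2 fold change 0.65, SE 0.12, edgeR adjusted p = 0.0033). YARS1 (ENSG00000134684; chr1:32775237-32818153), the tyrosyl enzyme, was at 95.4, 108 and 108 CPM in control and at 152, 155 and 145 CPM after Sev. Its groups were also apart (1.45-fold, log2 fold change 0.54, SE 0.081, edgeR adjusted p = 0.00162).

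Another 6 cytosolic genes rose by less. The valyl enzyme VARS1 went from 157 ± 16.0 to 218 ± 7.83 CPM (log2 fold change 0.47) and the tryptophanyl enzyme WARS1 from 32.2 ± 2.79 to 44.2 ± 1.66 CPM (0.46). KARS1, which like GARS1 serves both compartments and charges lysine, went from 63.8 ± 6.09 to 85.5 ± 6.54 CPM (0.42), so both dual-location genes were higher. The isoleucyl enzyme IARS1 reached 243 ± 16.7 CPM from 187 ± 9.46 CPM (0.38), and the seryl enzyme SARS1 reached 148 ± 8.78 CPM from 116 ± 3.05 CPM (0.35). QARS1, the glutaminyl enzyme, had the smallest called rise, from 114 ± 9.10 to 143 ± 12.9 CPM (0.33, edgeR adjusted p = 0.0266), and lost its call when any of 4 libraries was left out (control 2, control 3, Sev 1 or Sev 2), with estimates from 0.26 to 0.38 over all 6 omissions. KARS1 lost its call without Sev library 1 (0.36) and in the unfiltered FPKM fit. IARS1 and QARS1 lost their calls with library-size scaling (0.24 and 0.18) and in all 3 FPKM fits. Adjusted p ranged from 0.00504 to 0.0266 over these 6 genes, and the 3 libraries of each group did not overlap for any of them.

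AARS1 went the other way and had the largest change of the cytosolic genes. AARS1 (ENSG00000090861; chr16:70252295-70289543), the alanyl enzyme, measured 225, 201 and 216 CPM in control and 112, 117 and 113 CPM in Sev libraries. The groups were far apart and the Sev libraries were close together, with means of 214 ± 12.1 and 114 ± 2.96 CPM (1.88-fold lower, log2 fold change -0.91, SE 0.076, edgeR adjusted p = 0.000169). The other cytosolic gene that fell was LARS1, the leucyl enzyme of the multi-synthetase complex, from 162 ± 8.27 to 116 ± 6.22 CPM (log2 fold change -0.48, SE 0.079, edgeR adjusted p = 0.00246). Both genes kept their calls under all 15 alternative settings.

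The remaining 9 cytosolic genes were not called, with estimates between -0.11 and 0.18. HARS1 (log2 fold change 0.18), FARSB (0.16) and CARS1 (0.16) had the higher estimates, and FARSA (-0.11), NARS1 (-0.073), TARS3 (-0.052) and RARS1 (-0.035) were negative. EPRS1, which carries the glutamyl and prolyl enzymes in a single chain and so belongs to both classes, was at 159, 172 and 173 CPM in control and 186, 176 and 175 CPM in Sev libraries. The Sev values were all higher by a narrow margin (0.093, edgeR adjusted p = 0.341), and the sign turned with library-size scaling (-0.048). MARS1, the methionyl enzyme, had 95.3, 94.4 and 100 CPM in control and 99.3, 108 and 94 CPM in Sev libraries. Its groups overlapped (0.055, edgeR adjusted p = 0.611) and its sign also turned with library-size scaling (-0.089). NARS1, the asparaginyl enzyme, had 45.9, 51.6 and 49.2 CPM in control and 47.1, 46.8 and 45.7 CPM in Sev libraries, and these overlapped.

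**Figure D2:**
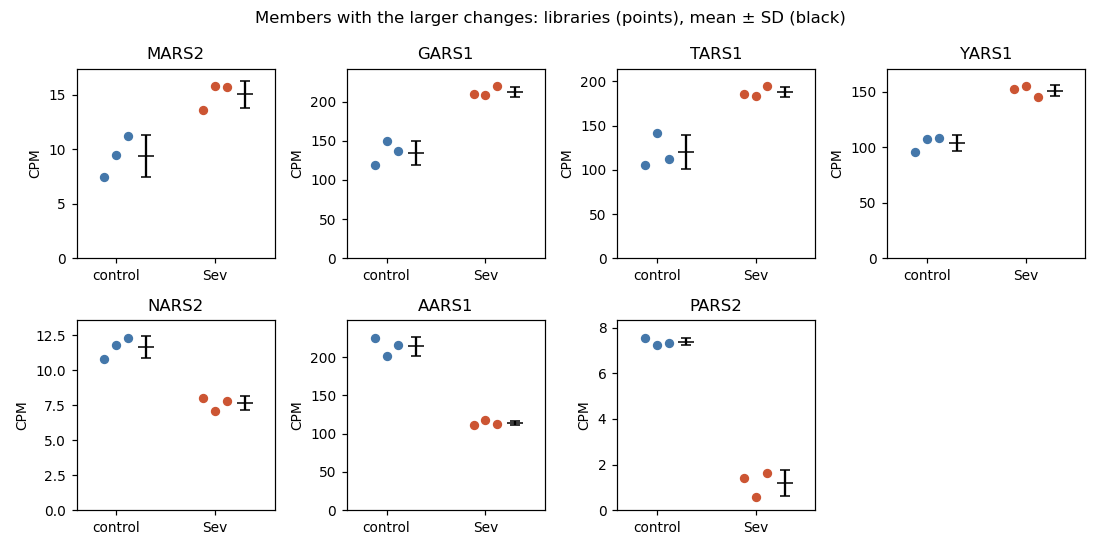
CPM in each library (points; vertical axes start at 0) for the 7 synthetases with an adjusted p under 0.05 and a log2 fold change of at least 0.5 in either direction, with black marks at the group means ± 1 SD (n = 3). In all 7 panels the control and Sev libraries do not overlap; GARS1, TARS1, YARS1 and MARS2 are higher and AARS1, NARS2 and PARS2 are lower in Sev.

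Among the mitochondrial enzymes, PARS2 fell far more than any other synthetase. PARS2 (ENSG00000162396; chr1:54756898-54764514), the mitochondrial prolyl enzyme, had 7.57, 7.24 and 7.35 CPM in control and 1.41, 0.559 and 1.64 CPM in Sev libraries, which correspond to 320, 287 and 357 reads against 53, 21 and 65 reads. The control libraries were almost equal, and Sev library 2 was the lowest of the Sev libraries (6.12-fold lower, log2 fold change -2.61, SE 0.34, edgeR adjusted p = 0.000852). On the log2(FPKM + 1) scale, which understates changes at low levels, the difference was -1.40. NARS2 (ENSG00000137513; chr11:78435961-78574874), the asparaginyl enzyme, had 10.8, 11.8 and 12.3 CPM in control and 8.02, 7.08 and 7.83 CPM in Sev libraries. Again no Sev library reached the control range (log2 fold change -0.61, SE 0.12, edgeR adjusted p = 0.00594). The alanyl enzyme AARS2 had 51.8, 49.2 and 54.2 CPM in control and 42.1, 40.4 and 40.7 CPM in Sev libraries. It was therefore lower together with AARS1, by a smaller amount (-0.33, SE 0.081, edgeR adjusted p = 0.0123), and lost its call without control library 3 (-0.30). HARS2, the histidyl enzyme, fell from 28.6 ± 3.22 to 20.4 ± 1.79 CPM (-0.48, edgeR adjusted p = 0.0141).

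The 3 mitochondrial genes that rose were MARS2, VARS2 and LARS2. MARS2 (ENSG00000247626; chr2:197705369-197708387), the methionyl enzyme, had 7.45, 9.44 and 11.2 CPM in control and 13.6, 15.8 and 15.7 CPM in Sev libraries. The controls were spread, but all lay below the Sev libraries (1.6-fold, log2 fold change 0.68, SE 0.17, edgeR adjusted p = 0.0137). The valyl enzyme VARS2 went from 38 ± 1.76 to 52.5 ± 1.15 CPM (0.46, edgeR adjusted p = 0.00302) and the leucyl enzyme LARS2 from 43.5 ± 2.26 to 59.3 ± 3.06 CPM (0.45, edgeR adjusted p = 0.0044). Of these, MARS2 lost its call in the unfiltered FPKM fit and LARS2 in all 3 FPKM fits.

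The other 9 mitochondrial genes were not called. SARS2 had the highest estimate of them, 12.8 ± 1.81 in control and 16.2 ± 2.26 CPM in Sev libraries (0.34, edgeR adjusted p = 0.106), followed by WARS2 (0.19), IARS2 (0.17), RARS2 (0.14) and CARS2 (0.13). TARS2, the threonyl enzyme, had 35.3, 33.7 and 36.6 CPM in control and 31.5, 32.6 and 32.4 CPM in Sev libraries, so that the Sev values were all lower while the test did not call it (-0.13, edgeR adjusted p = 0.235); it was called lower with library-size scaling (-0.27) and in all 3 FPKM fits. YARS2, the tyrosyl enzyme, had 7.94, 8.61 and 9.50 CPM in control and 7.51, 8.46 and 8.53 CPM in Sev libraries, which overlapped (-0.088). EARS2 (-0.16) and FARS2 (-0.31) completed the group. FARS2 varied in the controls (14.8 ± 3.83 CPM), and without control library 1 its estimate was -0.51 and it was called (edgeR adjusted p = 0.0413). WARS2 was called without Sev library 2 (0.29, edgeR adjusted p = 0.0348).

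Over all members, 16 genes had every Sev library above every control library and 7 had every Sev library below, that is 23 of 36, against 56.5% of all tested features without overlap. By location these were 12 cytosolic genes upward and 2 downward, and 4 mitochondrial genes upward and 5 downward. The per-library medians of the cytosolic genes, relative to the control mean, were -0.077, 0.075 and 0.020 in control and 0.24, 0.17 and 0.23 on the log2 CPM scale in Sev libraries. The mitochondrial medians were -0.067, 0.018 and 0.051 in control and -0.0075, -0.030 and 0.061 in Sev libraries. With TMM scaling the cytosolic medians were separated between the groups and the mitochondrial medians were not. With scaling to library size alone the cytosolic medians overlapped, at -0.044, 0.043 and 0.018 in control and 0.099, -0.025 and 0.14 in Sev libraries.

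**Figure D3:**
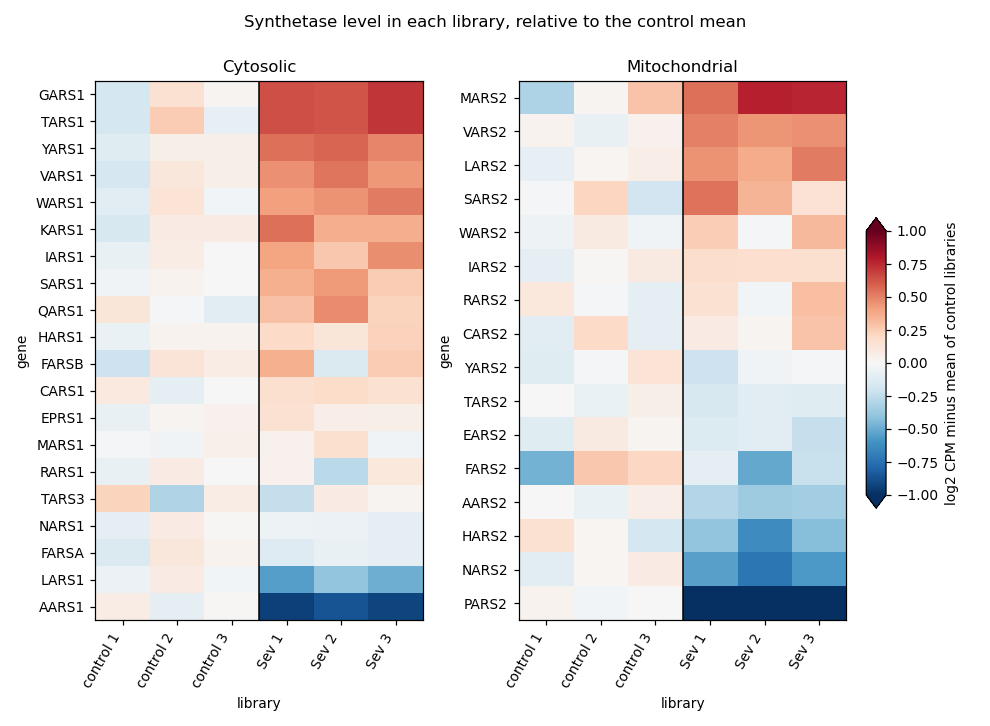
Log2 CPM of each synthetase in each library minus the mean of the 3 control libraries, in color (red above and blue below 0; the scale ends at 1 and -1, and PARS2 lies beyond it), with a vertical line between the control and Sev libraries. GARS1, TARS1 and MARS2 are red in all 3 Sev libraries and AARS1 and PARS2 are blue in all 3.

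By catalytic class, 8 of 18 class I genes were higher and 1 (LARS1) was lower, while 4 of 17 class II genes were higher and 5 lower. These shares were 44.4% higher and 5.56% lower for class I and 23.5% and 29.4% for class II, against 22.1% and 21.5% of all tested features, so class II was near the background upward. The classes were farthest apart among the mitochondrial genes. Of the 9 mitochondrial class I genes, 3 were higher (LARS2, MARS2 and VARS2) and 0 were lower by edgeR (median log2 fold change 0.17). The count of 0 lower held at an unadjusted p under 0.05 and by DESeq2. In contrast, limma on log2(FPKM + 1) and edgeR with library-size scaling called 1, EARS2, lower. Of the 3 higher, LARS2 lost its call in all 3 FPKM fits and MARS2 in the unfiltered one. Of the 7 mitochondrial class II genes, 0 were higher and 4 were lower (AARS2, HARS2, NARS2 and PARS2), with a median of -0.33 and 6 of 7 estimates negative; SARS2 was the exception. The count of 0 higher held at an unadjusted p under 0.05, by DESeq2 and by limma. The cytosolic classes were less apart, with 5 higher and 1 lower of 9 class I genes (median 0.33) and 4 higher and 1 lower of 10 class II genes (median 0.17). The difference between the classes was not tested.

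Of the 7 synthetases in the multi-synthetase complex, IARS1, KARS1 and QARS1 were higher, LARS1 was lower and EPRS1, MARS1 and RARS1 were not called (median log2 fold change 0.093). Outside the complex, 6 of 13 cytosolic genes were higher and 1 was lower (median 0.18). The shares were 42.9% higher and 14.3% lower inside and 46.2% and 7.69% outside the complex, against 22.1% and 21.5% of all tested features. Inside the complex, IARS1 and QARS1 lost their calls with library-size scaling, and IARS1, KARS1 and QARS1 lost theirs in the unfiltered FPKM fit. The 6 genes that rose outside the complex kept their calls under all 15 alternatives. Of the 3 scaffold genes of the complex, AIMP1 rose from 25.3 ± 2.96 to 40.0 ± 5.93 CPM (log2 fold change 0.66, edgeR adjusted p = 0.00688) and EEF1E1 from 14.2 ± 0.688 to 17.9 ± 1.41 CPM (0.34, edgeR adjusted p = 0.0396). AIMP2 was at 12.8 ± 1.57 and 12.9 ± 2.85 CPM and was not called.

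Levels between genes were compared per length, in the deposited FPKM. The per-library median over the cytosolic genes was 14.6 to 17.7 FPKM and that over the mitochondrial genes 3.29 to 4.06 FPKM. In control cells AARS1 was the most abundant synthetase (40.7 ± 3.10 FPKM), followed by GARS1 (28.8 ± 2.69), EPRS1 (27.0 ± 0.805) and SARS1 (25.8 ± 0.170), of which GARS1 and EPRS1 did not differ beyond their spread. In Sev cells GARS1 was first (41.2 ± 2.63 FPKM), followed by SARS1 (29.6 ± 0.775) and VARS1 (28.6 ± 0.310), and AARS1 stood at 19.6 ± 0.443 FPKM. TARS3, a second cytosolic threonyl enzyme, was the lowest of the cytosolic genes (1.5 ± 0.299 and 1.30 ± 0.148 FPKM). IARS2 (23.6 ± 1.26 and 24.0 ± 0.816 FPKM) and WARS2 (17.6 ± 0.658 and 18.3 ± 2.76 FPKM) were the most abundant mitochondrial genes. PARS2 had 2.66 ± 0.112 FPKM in control and 0.394 ± 0.198 FPKM after Sev, the lowest of the 36.

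**Figure D4:**
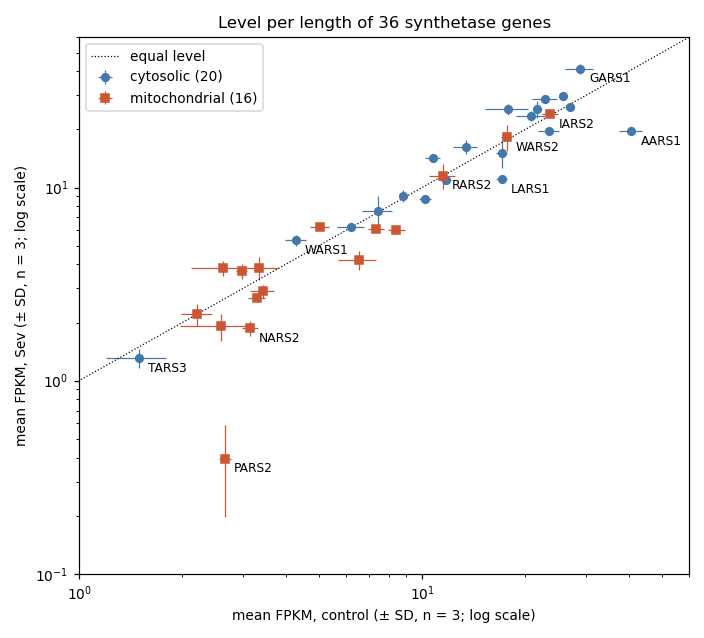
Mean FPKM in control (horizontal, log axis) against Sev (vertical, log axis) for each synthetase, with error bars of 1 SD (n = 3), colors for location and a diagonal of equal level. Most genes lie along the diagonal; PARS2 (2.66 and 0.394 FPKM) and AARS1 (40.7 and 19.6 FPKM) lie farthest below it, and GARS1 (28.8 and 41.2 FPKM) lies above it.

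The cytosolic and mitochondrial enzymes for the same amino acid can be compared within a library, where the scaling between libraries drops out. Compared were 17 such pairs over 16 amino acids, with both cytosolic phenylalanyl subunits set against FARS2 and with EPRS1 set against EARS2 for glutamate and PARS2 for proline. TARS3 was not among these pairs; its FPKM ratio to TARS2 was 0.234, 0.170 and 0.204 in control and 0.191, 0.231 and 0.223 in Sev libraries, which overlapped. In 12 of the 17 pairs the ratio in the 3 control libraries did not overlap the ratio in the 3 Sev libraries. Lack of overlap was common in these data (56.5% of single tested features), and no share was computed for other gene pairs. In the exact two-sided permutation test of 3 against 3 libraries each of these had p = 0.1, which is the smallest the design allows, and 0.142 after Benjamini-Hochberg adjustment over the 17 pairs, so none could reach 0.05.

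The balance moved toward the cytosolic enzyme in 9 of these 12 pairs. The FPKM ratio of EPRS1 to PARS2 was 9.38, 10.6 and 10.5 in control and 59.3, 144 and 47.5 in Sev libraries (log2 ratio higher by 2.86). That of TARS1 to TARS2 was 2.12, 3 and 2.19 in control and 4.23, 4.03 and 4.31 in Sev libraries (0.80). For HARS1 and HARS2, the divergent pair whose intervening sequence is printed above, the ratio was 1.16, 1.38 and 1.56 in control and 2.04, 2.29 and 2.13 in Sev libraries (0.66). HARS2 was lower and HARS1 was not called. The annotated genes overlap each other, and HARS2 also overlaps ZMAT2 on its own strand (log2 fold change 0.32, edgeR adjusted p = 0.0495), so reads from the shared bases cannot be assigned with certainty. YARS1/YARS2 (0.63), NARS1/NARS2 (0.54), FARSB/FARS2 (0.43), WARS1/WARS2 (0.28), EPRS1/EARS2 (0.25) and IARS1/IARS2 (0.21) moved in the same direction by less. In WARS1/WARS2 the mitochondrial enzyme was the more abundant in all 6 libraries, with an FPKM ratio of 0.243 ± 0.00877 in control and 0.296 ± 0.0354 in Sev libraries. IARS1/IARS2 was close to 1, with IARS2 above IARS1 in the control libraries (0.934, 0.957 and 0.866).

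In 3 pairs the balance moved toward the mitochondrial enzyme. The ratio of LARS1 to LARS2 was 5.83, 5.99 and 5.37 in control and 2.85, 3.36 and 2.85 in Sev libraries, as LARS1 fell and LARS2 rose (log2 ratio -0.93). MARS1 to MARS2 was 5.54, 4.32 and 3.85 in control and 3.17, 2.94 and 2.59 in Sev libraries (-0.64), where the called change was in MARS2. AARS1 to AARS2 was 5.08, 4.77 and 4.65 in control and 3.10, 3.39 and 3.25 in Sev libraries (-0.58), with both genes lower. The ratios overlapped for RARS1/RARS2 (-0.18), FARSA/FARS2 (0.18), CARS1/CARS2 (0.030), VARS1/VARS2 (0.0093) and SARS1/SARS2 (0.0027). VARS1 and VARS2 both rose by nearly the same amount (0.47 and 0.46).

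**Figure D5:**
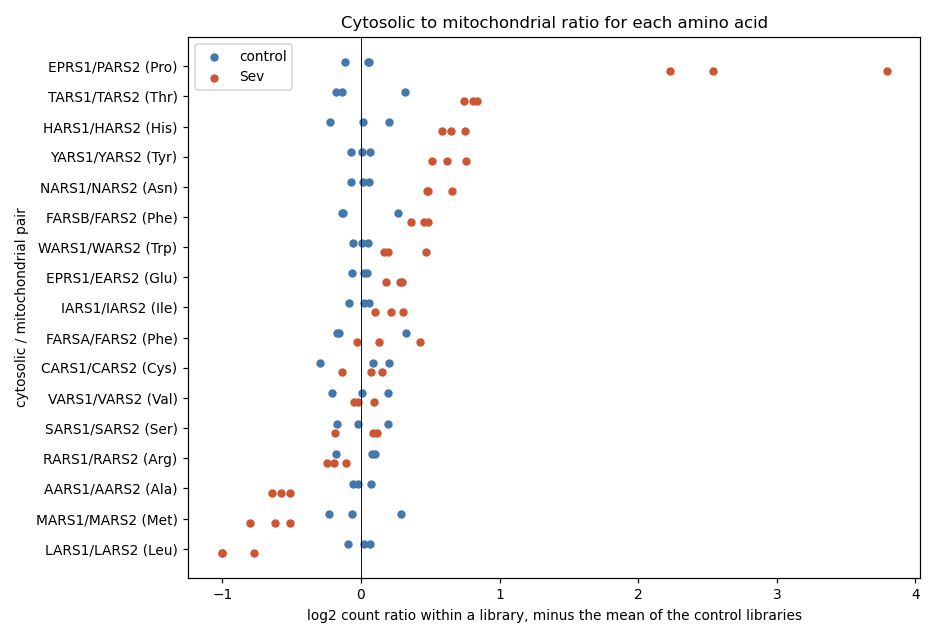
Log2 ratio of read counts of the cytosolic over the mitochondrial synthetase in each library (points; blue control, red Sev), minus the mean of the control libraries, for the 17 pairs. EPRS1/PARS2 moves by 2.86 toward the cytosolic gene, and LARS1/LARS2 (-0.93), MARS1/MARS2 (-0.64) and AARS1/AARS2 (-0.58) move toward the mitochondrial gene.

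The mRNA levels of genes in the pathway that senses uncharged tRNA were read from the same fit. Neither tRNA charging nor GCN2 activity was measured. ATF4 had 179 ± 7.27 CPM in control and 377 ± 31.1 CPM in Sev libraries (log2 fold change 1.08, SE 0.086, edgeR adjusted p = 0.000147). GCN1, which helps GCN2 sense stalled ribosomes, rose from 252 ± 6.09 to 312 ± 16.3 CPM (0.31), and IMPACT, an inhibitor of GCN2, fell from 3.72 ± 0.391 to 2.5 ± 0.354 CPM (-0.57). EIF2AK4, the gene of GCN2, was not called (0.067). Of 26 amino acid response genes, 14 were higher and 3 lower (median 0.54), against 22.1% and 21.5% of all tested features. Those with the smallest p were SLC7A1 (1.27), CHAC1 (1.97), ATF3 (0.71) and DDIT4 (-3.06). Past the threshold of the study were 7 of them upward and 1, DDIT4, downward, against 11.4% and 12% of all tested features. The 9 genes of this list that were not called included ASNS (0.14), PSAT1, PHGDH, SHMT2 and CEBPB. PSPH was lower (-0.47).

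The cytosolic synthetases generally listed as ATF4 targets did not move as a block. Of these 12 genes, GARS1, IARS1, SARS1, TARS1, WARS1 and YARS1 were higher, AARS1 and LARS1 were lower, and CARS1, EPRS1, MARS1 and NARS1 were not called (median log2 fold change 0.26), that is 50% higher and 16.7% lower against 22.1% and 21.5% of all tested features. Of the 8 other cytosolic genes 3 were higher and 0 lower by edgeR (median 0.17), also unadjusted and by DESeq2, a share of 37.5% higher, while limma on log2(FPKM + 1) and edgeR with library-size scaling called FARSA lower. The difference between these lists was not tested. The 7 cytosolic genes whose printed promoter stretch holds TGATGNAA were divided in the same manner, with GARS1, IARS1 and TARS1 higher, AARS1 lower, and CARS1, MARS1 and NARS1 not called. Of the cytosolic genes with a window but no element, KARS1, QARS1, SARS1 and WARS1 were higher. The others of these, EPRS1, FARSA, FARSB, HARS1 and RARS1, were not called. The mitochondrial gene with a match, YARS2, was not called. The element in the AARS1 window had the same 8 letters as those in IARS1, TARS1, CARS1 and MARS1, and lay farther from the start than these. Whether the element or its position relates to the changes was not tested.

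Of 16 partner genes for tRNA maturation, amidation and related steps, 3 were higher (18.8%) and 4 lower (25%), shares near the 22.1% and 21.5% of all tested features. YRDC, which makes the threonylcarbamoyl modification of tRNA, rose from 19.9 ± 2.04 to 52.3 ± 0.939 CPM (log2 fold change 1.39, edgeR adjusted p = 0.000112), and RTCB, the tRNA splicing ligase, from 71.5 ± 3.52 to 103 ± 4.04 CPM (0.52). SEPSECS, which completes the charging of selenocysteine tRNA, fell from 15.3 ± 2.44 to 7.34 ± 1.49 CPM (-1.05), and GATC, a subunit of the mitochondrial amidotransferase that makes glutaminyl-tRNA, fell from 32.1 ± 3.46 to 19.2 ± 1.13 CPM (-0.74). Of 5 cytosolic elongation factor genes, which deliver charged tRNA to the ribosome or move it along, EEF1B2 (0.52), EEF1D (0.40) and EEF2 (0.34) were higher and EEF1A1 and EEF1G were not called. Of 9 mitochondrial translation factor genes, TSFM (0.77) and MTRF1L (0.37) were higher, and MTIF3 (-0.74), MRRF (-0.62) and GFM2 were lower, which is 22.2% and 33.3% of the list.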

How the data were processed

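RNA-seq of 3 control and 3 Sev libraries of U251 cells was used. Per the labels and the study's methods, RNA was depleted of ribosomal RNA, libraries were strand-specific, and 150-base paired reads were sequenced. The authors deposited a table of read counts per gene and a table of FPKM per gene; the submitters' processing notes name bcl2fastq 2.19, featureCounts and hg18, with no role given for hg18, and the strand setting of the counting was not given in the sources used here. The files hold no coordinates, so positions were joined by Ensembl identifier from GENCODE 29 (GRCh38), and older symbols were matched to current ones. Counts were tested with edgeR 4.0.16 (R 4.3.3; TMM, filterByExpr, quasi-likelihood, Benjamini-Hochberg over all tested features). FPKM were used for levels between genes and, as log2(FPKM + 1) or log2(FPKM + 0.1) in limma 3.58.1, as alternatives; genes there needed at least 0.5 FPKM in 3 libraries. The other alternatives were DESeq2 1.42.0 (its test, or its size factors alone), library-size scaling, a looser and a stricter filter (none, or a minimum of 10 counts per library), a replicate block and the omission of each library. Pair ratios used exact permutation tests.

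The 36 genes and all gene lists were chosen with earlier results of these data known. Values in every library were given for genes with an adjusted p under 0.05 and a log2 fold change of at least 0.5 in either direction and for their partners in the other compartment. Other synthetases were given by group means or estimates, and related lists by counts with up to 4 genes of smallest p plus ATF4. A few further values were chosen after their values were seen. These were the ratios and estimates of LARS1, HARS1 and HARS2, the overlapping genes, and the amino acid response genes named as not called or as PSPH. Replicates of a group differed beyond sampling noise in 51.8% to 69.3% of 13668 genes, so no library was taken to be a repeat deposit of another; this does not show that they are independent cultures. The code was tested on simulated data.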

Additional observations from a re-analysis of the deposited data

How the results depend on the processing

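Of the 18 called synthetases, 12 kept their call and direction under all 15 alternatives. QARS1 lost its call in 8, IARS1 in 4 (library-size scaling and the 3 FPKM fits), LARS2 in 3, KARS1 in 2, and AARS2 and MARS2 in 1 each. The median of all tested features moved from -0.0056 to -0.147 with library size only. It was -0.115 and -0.166 in the filtered fits of log2(FPKM + 1) and log2(FPKM + 0.1) and -0.00895 without filter, fits that change unit, test and filter together. Library size only called 4665 features higher and 7502 lower, against 6094 and 5920 with TMM, and gave synthetase medians of 0.035 (cytosolic) and -0.12 (mitochondrial). The medians in the fits of log2(FPKM + 1), with or without filter, were 0.024 and -0.091, and in log2(FPKM + 0.1) 0.027 and -0.12. All 3 FPKM fits called 4 cytosolic genes lower, with FARSA and NARS1 added, and 6 (filtered) or 5 (unfiltered) mitochondrial genes lower, and the unfiltered one called 1 mitochondrial gene higher. Library size only and all FPKM fits put 2 synthetases past the threshold of the study, AARS1 joining PARS2. Over omissions of single libraries the cytosolic median ran from 0.16 to 0.24 (the latter without Sev library 2) and the mitochondrial median from -0.034 (without control library 1; -0.033 without Sev library 3) to 0.056. The sign turned only for genes that were not called. With library size only these were EPRS1 (-0.048), MARS1 (-0.089) and CARS2 (-0.0041). With log2(FPKM + 1), filtered or not, they were EPRS1 (-0.049), MARS1 (-0.085), CARS2 (-0.0058) and RARS2 (-0.0025), and with log2(FPKM + 0.1) -0.051, -0.092, -0.0089 and -0.0032 in the same order. Omitting single libraries gave RARS1 estimates from -0.11 to 0.075 and TARS3 estimates from -0.19 to 0.056. The cause of these changes was not tested. The replicate block kept 9 cytosolic genes higher and 2 lower and 3 mitochondrial genes higher and 4 lower, and changed no call; same-numbered libraries did not deviate together (r = -0.00723, 0.00351 and 0.027), so the numbers were not taken to pair the samples. The non-overlapping pairs numbered 12 to 14 over all settings. At 21 to 65 reads, PARS2 in Sev cells was the value most limited by depth.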

Other observations

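Several synthetase genes overlap or abut another annotated gene on the opposite strand, and some of these neighbors moved far more than the synthetases. GARS-DT, a noncoding RNA transcribed away from GARS1, had 74.6, 49.7 and 66.4 CPM in control and 15.2, 17.4 and 20 CPM in Sev libraries (log2 fold change -1.86, edgeR adjusted p = 0.000237), while GARS1 rose. S100PBP, which overlaps YARS1, had 37.4, 37.5 and 37.5 CPM in control and 12.2, 6.15 and 7.35 CPM in Sev libraries (-2.13, edgeR adjusted p = 0.00046), while YARS1 rose. AL359915.2, on the strand opposite WARS2, fell from 86.6 ± 5.16 to 38.3 ± 10.5 CPM (-1.18), and WARS2-IT1 rose from 7.03 ± 0.669 to 12.5 ± 0.358 CPM (0.83), while WARS2 was not called. DDIT3, the stress-induced transcription factor CHOP, lies opposite MARS1 and rose from 14.0 ± 1.74 to 29.3 ± 1.22 CPM (1.07), while MARS1 was not called. These neighbors were chosen after their values were seen.

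The libraries were strand-specific, but how strand was used in counting is not given in the sources used here, so reads of such neighbors and of the synthetases cannot be told apart with certainty. Among the 9 synthetases without an annotated overlapping gene (EPRS1, FARSB, NARS1, RARS1, SARS1, TARS1, TARS3, PARS2 and RARS2), SARS1 and TARS1 were higher (22.2%) and PARS2 was lower (11.1%), against 22.1% and 21.5% of all tested features. AARS1 is listed with an overlapping gene, RN7SL279P, of at most 0.213 CPM in any library.

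Some markers of the tumor cells themselves also moved with Sev, and their part in the synthetase values was not tested. Of 6 tested, 16.7% were higher and 33.3% lower, against 22.1% and 21.5% of all tested features. CD44 rose from 385 ± 19.1 to 755 ± 39.7 CPM (log2 fold change 0.97), SOX2 fell from 286 ± 7.22 to 173 ± 9.80 CPM (-0.72) and S100B fell from 22.1 ± 5.55 to 10.3 ± 0.235 CPM (-1.10), while VIM, NES and GFAP were not called. Of the markers of other cells, MBP (2.52 ± 0.199 and 5.06 ± 1.12 CPM) and PECAM1 (0.693 ± 0.258 and 1.31 ± 0.151 CPM) were higher, both at low levels. That is 33.3% of the 6 tested.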
